A study of Mus musculus with 7 samples.

Results

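Airway macrophages (AMs) of mice with muco-obstructive lung disease differed from WT AMs in DNA methylation at 5 regions that the study's annotation links to genes of the chromatin machinery. The genes were Nsd1, Setd7, Hdac2, Hmg20b and Mbd2. The regions were chosen by gene symbol among 1926 differentially methylated regions (DMRs) called by the study, in which each of the 5 genes occurred once, so that 5 of 1926 DMRs are described. AMs were sorted as CD45+ Siglec-F+ CD11c+ cells from lungs of Scnn1b-Tg mice (3 samples) and of WT littermates (4 samples), all female, 6 weeks old and on a C57BL/6 background. The Scnn1b transgene is driven by the club cell promoter and is meant to act in airway epithelium and not in the sorted AMs. By fluorescence microscopy the study found no SCNN1B protein in AMs of either genotype. Bisulfite sequencing of the whole genome after tagmentation (tWGBS), which reads methylated cytosines as C and unmethylated ones as T, gave the methylation levels.

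Histones carry chemical marks that writers place, erasers remove and readers recognise, and DNA carries methyl groups on CpG dinucleotides that form a further layer. Nsd1 and Setd7 encode histone lysine methyltransferases, writers that act mainly on H3K36 and on H3K4. Hdac2 encodes a class I histone deacetylase, an eraser found in the NuRD, SIN3 and CoREST corepressor complexes. Hmg20b encodes a high mobility group box subunit of the CoREST complex, which joins the deacetylases to a histone demethylase, and Mbd2 encodes a reader of methylated CpGs that recruits NuRD. In mouse cells H3K36 methylation placed by Nsd1 is known to help guide the DNA methyltransferase Dnmt3a.

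The table gives 1 methylation level per genotype and region, the authors' mean over CpGs and samples as a fraction from 0 to 1. It holds no level per sample and no read depth, so no spread between samples and no test over samples can be given, and the depth behind each level is unknown. Every region was on the list because it had been called as different between genotypes, and the differences below are therefore a description of called regions. The header does not say which level column is Scnn1b-Tg. The first column was lower in 1404 of 1926 regions. It was taken as Scnn1b-Tg because the study describes mainly loss of methylation in these AMs, and all directions rest on that reading. Expression of the 5 genes was not analysed here.

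The reference sequence of 4 of the regions is shown because CpG content set them apart from each other more than the size of the difference did. Sequences are from the GRCm38 reference, the assembly behind mm10, on the plus strand, 5′ to 3′, with CpGs in capitals. For Nsd1 and Hmg20b the 300 bases with the most CpGs are printed, taken for Nsd1 from the part upstream of predicted first exons. The Setd7 and Hdac2 regions are complete.
Nsd1, chr13:55210019-55210318: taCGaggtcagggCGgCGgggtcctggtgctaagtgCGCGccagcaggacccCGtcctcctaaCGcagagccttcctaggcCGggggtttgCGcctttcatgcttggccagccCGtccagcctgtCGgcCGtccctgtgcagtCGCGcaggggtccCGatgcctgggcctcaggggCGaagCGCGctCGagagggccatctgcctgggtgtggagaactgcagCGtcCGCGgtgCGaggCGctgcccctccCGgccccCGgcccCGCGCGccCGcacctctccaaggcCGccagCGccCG
Hmg20b, chr10:81346762-81347061: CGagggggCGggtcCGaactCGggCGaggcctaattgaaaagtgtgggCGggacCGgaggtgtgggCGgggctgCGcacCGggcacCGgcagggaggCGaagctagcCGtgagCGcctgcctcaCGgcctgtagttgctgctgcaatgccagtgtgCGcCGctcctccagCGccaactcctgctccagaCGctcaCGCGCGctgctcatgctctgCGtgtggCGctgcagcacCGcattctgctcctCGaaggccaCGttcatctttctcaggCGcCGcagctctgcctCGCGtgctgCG
Setd7, chr3:51603854-51604149: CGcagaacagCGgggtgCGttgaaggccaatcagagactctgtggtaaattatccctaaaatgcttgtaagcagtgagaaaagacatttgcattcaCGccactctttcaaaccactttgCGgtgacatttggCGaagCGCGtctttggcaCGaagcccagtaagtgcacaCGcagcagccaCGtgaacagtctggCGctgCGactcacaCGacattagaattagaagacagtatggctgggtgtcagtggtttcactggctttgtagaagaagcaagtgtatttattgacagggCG
Hdac2, chr10:36891954-36892165: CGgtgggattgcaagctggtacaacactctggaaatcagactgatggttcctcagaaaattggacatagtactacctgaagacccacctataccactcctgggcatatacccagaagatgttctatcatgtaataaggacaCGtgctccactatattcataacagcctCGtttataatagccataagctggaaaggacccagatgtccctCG

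The printed bases of Nsd1 and Hmg20b hold 33 and 32 CpGs within 300 bases each. The 296 bases of Setd7 hold 15, and the 212 bases of Hdac2 hold 4. The regions thus span dense CpG sequence at Nsd1 and Hmg20b, an intermediate density at Setd7 and sparse CpGs at Hdac2. In all 5 regions the number of CpGs in the table equalled that of the reference.

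Methylation was higher in Scnn1b-Tg AMs at Nsd1 and Hmg20b and lower at Setd7, Hdac2 and Mbd2. The 2 gains among 5 regions stand beside a share of gains of 27.1% in the whole list (522 of 1926). With so few regions this count describes them and does not set them apart. Both gains lay within the gene they are named for, whereas the 3 losses lay outside it, between 43.0 and 720 kb from its nearest end. In the whole list losses also lay farther from the assigned TSS than gains, at a median of 55.4 against 23.2 kb. Of all 1404 losses, 862 were distal intergenic, so this contrast is no result about the 5 genes.

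**Figure D1:**
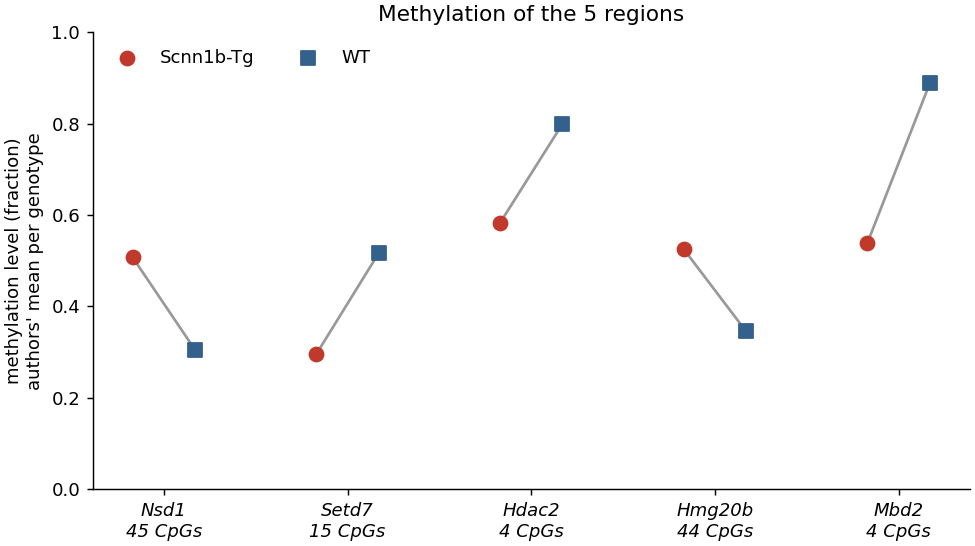
Methylation level (fraction, authors' mean per genotype) of the 5 regions, with Scnn1b-Tg as circles on the left and WT as squares on the right of each pair and the CpG number under each gene. Levels in Scnn1b-Tg AMs were above those in WT AMs at Nsd1 and Hmg20b and below them at Setd7, Hdac2 and Mbd2, and no error bars can be drawn because levels per sample are not in the table.

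At the writer gene Nsd1, a stretch of intron 1 near the start of the gene was more methylated in Scnn1b-Tg AMs. The region covered 427 bp on chromosome 13 (55210006 to 55210432, mm10), and its 45 CpGs averaged 0.507 in Scnn1b-Tg and 0.305 in WT. The difference was 0.203, a level 1.67 times that of WT. Only 2 DMRs of the 1926 held more CpGs, so Nsd1 ranked 3 of 1926 by CpG number. By size of the difference it was below the middle of the gains, since 36.2% of the 522 gains had a difference of at most this size. Among the 99 gains with at least 10 CpGs, where differences are smaller (median 0.193), that share was 65.7%.

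The Nsd1 region did not cover the annotated start of the curated transcript. It began 224 bp and ended 650 bp downstream of the transcription start site (TSS), so that all 45 CpGs fell in intron 1 of the curated RefSeq transcript, behind a first exon of 94 bp. The TSSs of 2 of 24 RefSeq models of Nsd1, both computationally predicted, lay inside it. The first coding bases are in exon 2, beyond the region. The whole region sat inside a CpG-rich run of 3429 bp with 308 CpGs, which reached from position -206 to position 3222 relative to the TSS. The run was defined by windows of 200 bp with over 50% GC and a ratio of observed to expected CpGs above 0.6. The DMR thus took 45 of the 308 CpGs of this run, and the rest of it, the TSS included, held no DMR.

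Compared with the other gains, Nsd1 was rich in GC, at 74.5% against a median of 52.6%, with 10.5 CpGs per 100 bp against a median of 3.70. CpG-rich runs overlapped 187 of the 522 gains (35.8%) and 37 of the 58 gains that the authors class as promoter within 1 kb of a TSS. Within these 58 promoter gains, Nsd1 ranked 2 by CpG number and 20 by size of the difference. Their median levels, 0.505 in Scnn1b-Tg and 0.303 in WT, were close to those of Nsd1. The CpG number of Nsd1 was above the median of 7 in that class.

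At Hmg20b, the CoREST subunit gene, the gain lay in the last part of the gene. The region covered 485 bp on chromosome 10 (81346623 to 81347107, mm10) and its 44 CpGs averaged 0.525 in Scnn1b-Tg against 0.345 in WT. The difference was 0.180, and 18.6% of the gains had one of at most this size. Hmg20b shared rank 4 of 1926 by CpG number with 1 other DMR, and 6 DMRs of the list had 40 or more CpGs, of which 5 were gains. Among the 31 gains in exons it ranked 2 by CpG number and 19 by size of the difference, and the median levels of that class were 0.644 in Scnn1b-Tg and 0.414 in WT. Hmg20b was thus below the class median in both genotypes.

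Hmg20b is transcribed from the minus strand. The authors' table places the region in exon 5 of 7 of a UCSC transcript, 3.26 kb from the TSS. On the curated RefSeq transcript with 9 exons, 22 of the CpGs fell in exon 7 and 8 in exon 8, both coding, and 11 and 3 fell in introns 7 and 6. The majority of the CpGs were therefore protein-coding. The region sat inside a CpG-rich run of 992 bp with 65 CpGs, separate from that at the start of the gene, which spanned 980 bp with 82 CpGs and held no DMR. The nearest coding TSS on the RefSeq annotation was that of the neighbouring gene Gipc3, 3003 bp away, against 3319 bp to that of Hmg20b itself. By location the region is in Hmg20b, and by distance to a TSS it is nearer to Gipc3.

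**Figure D2:**
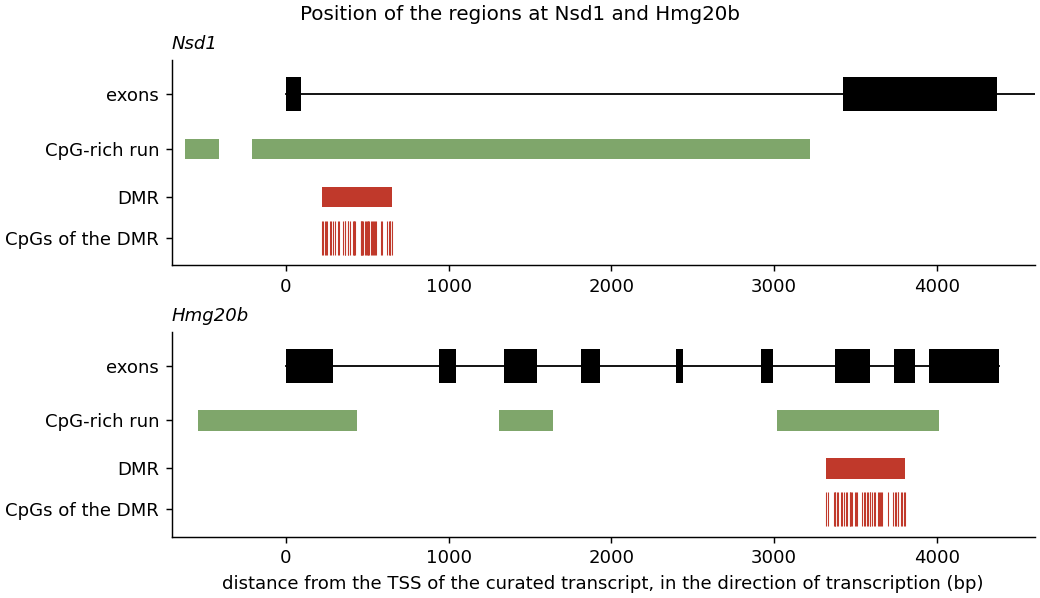
Map of the regions at Nsd1 (top) and Hmg20b (bottom), with exons of the curated transcript in black, CpG-rich runs in green, the DMR and its CpGs in red, and the distance from the TSS in bp along the direction of transcription. The Nsd1 region lies from 224 to 650 bp in intron 1 within the run at the gene start, and the Hmg20b region lies from 3320 to 3804 bp, over exons 7 and 8, in a run apart from that at the gene start.

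Setd7, the second writer gene, was linked to a loss at a distance. The region covered 295 bp on chromosome 3 (51603854 to 51604148, mm10), 43.0 kb upstream of the TSS of Setd7, and its 15 CpGs averaged 0.296 in Scnn1b-Tg and 0.517 in WT. The difference was -0.221, and 34.1% of the 1404 losses were of at most this size. Its WT level was low for a loss. The WT level was at or below that of Setd7 in 5.13% of losses, and the median WT level of losses was 0.829. It also had more CpGs than most, with 97.2% of losses at or below 15, and among the 862 distal intergenic losses it ranked 18 by CpG number.

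The Setd7 region overlapped no annotated gene but filled most of a short CpG-rich run of 342 bp (51603850 to 51604191), so that all 15 CpGs of that run were in the DMR. CpG-rich runs overlapped 353 of 1404 losses (25.1%). Of the 3 regions in such a run, Nsd1 and Hmg20b were gains and Setd7 a loss, and gains made up 34.6% of the 540 DMRs in a run. The link to Setd7 depends on the annotation, since a predicted RefSeq transcript of Mgst2, a glutathione transferase family gene on the other side, starts 32.8 kb away. With curated transcripts alone Setd7 was the nearest coding gene.

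The surroundings of Setd7 held more DMRs than those of the other 4 regions. Within 1 Mb there were 8 others, 7 losses and 1 gain, whereas the median over the whole list was 1 and 0.260% of all DMRs had 8 or more. That share includes the Setd7 region itself, and DMRs close to each other count one another. The closest was 105 kb away, in an intron of Maml3 and assigned to Mgst2, with 15 CpGs and levels of 0.354 in Scnn1b-Tg and 0.563 in WT. Maml3 encodes a coactivator of Notch signalling. The DMRs of Maml3 included a loss 176 kb from the Setd7 region (0.223 in Scnn1b-Tg, 0.434 in WT) and the only gain of this stretch (0.598 in Scnn1b-Tg, 0.383 in WT, 20 CpGs). The 2 losses assigned to Noct, which encodes the circadian protein nocturnin, had 0.255 in Scnn1b-Tg and 0.519 in WT for the first and 0.248 and 0.471 for the second. The other 3 losses had high WT levels, at 0.662 in Scnn1b-Tg and 0.887 in WT for that of Slc7a11, 0.628 and 0.840 for a further loss of Maml3, and 0.677 and 0.890 for that of Foxo1. The losses around Setd7 thus had no common WT level.

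The other regions had fewer DMRs around them than Setd7, beside the median of 1 over the whole list. Nsd1 had 1 other DMR within 1 Mb, a gain assigned to Fam193b and 368 kb away (0.610 in Scnn1b-Tg, 0.349 in WT). Hmg20b had 3, all losses, of which the closest was at the promoter of S1pr4, a sphingosine phosphate receptor gene, 153 kb away (0.230 in Scnn1b-Tg, 0.416 in WT). Losses made up 1404 of the 1926 DMRs of the list, so that these 3 losses are no result about Hmg20b. Mbd2 had 1 and Hdac2 none, as was the case for 22.1% of all DMRs.

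The region linked to Hdac2, the eraser gene, held few CpGs and lay outside the gene. In length and distance it was near the middle of losses, with 55.6% at most as long and 58.5% at most as far from the TSS. It covered 211 bp on chromosome 10 (36891954 to 36892164, mm10), 82.4 kb upstream of the TSS, and its 4 CpGs averaged 0.583 in Scnn1b-Tg against 0.799 in WT. The difference was -0.217, and 30.4% of losses were of at most this size. The region held the smallest CpG number of the list, 4, as did 647 of 1404 losses in all (46.1%). The median spacing of its CpGs was 42 bp and the widest 141 bp, against 6.50 and 36 bp at Nsd1. Every base of the region was soft-masked as repeat in the reference, which was true of 480 of 1404 losses (34.2%) and 93 of 522 gains (17.8%). How uniquely reads mapped there is not given in the table, and its part in the levels was not tested. Hdac2 was nonetheless the nearest coding gene by TSS.

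Mbd2, the reader gene, had the largest difference of the 5 regions and lay farthest from its gene. The region covered 378 bp on chromosome 18 (71348964 to 71349341, mm10), and its 4 CpGs averaged 0.538 in Scnn1b-Tg and 0.888 in WT. The difference was -0.350, and 96.1% of losses were of at most this size. Among the 389 intronic losses it ranked 15 by size. The level rests on few CpGs in sparse sequence, with 1.06 CpGs per 100 bp against a median of 2.90 in losses. Losses with 4 CpGs had a median absolute difference of 0.247, against 0.209 for losses with at least 10 CpGs.

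The region lay 781 kb from the TSS of Mbd2 and inside another gene, Dcc, which encodes a netrin receptor of axon guidance. The authors' annotation names intron 21 of 28 of that gene. Mbd2 was assigned because the TSS of the very long Dcc gene is farther still, and on the RefSeq annotation Mbd2 was likewise the nearest coding TSS. A second loss lay 289 kb away in intron 7 of Dcc (0.708 in Scnn1b-Tg, 0.896 in WT). The authors place 569 DMRs in an exon or intron and name the host gene by a gene ID for 527 of them. Of these 527, 117 (22.2%) were in a gene other than the assigned one. In addition, 156 of all DMRs (8.10%) were over 500 kb from the assigned TSS. The name Mbd2 thus stands for the nearest TSS and not for a site in the gene.

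**Figure D3:**
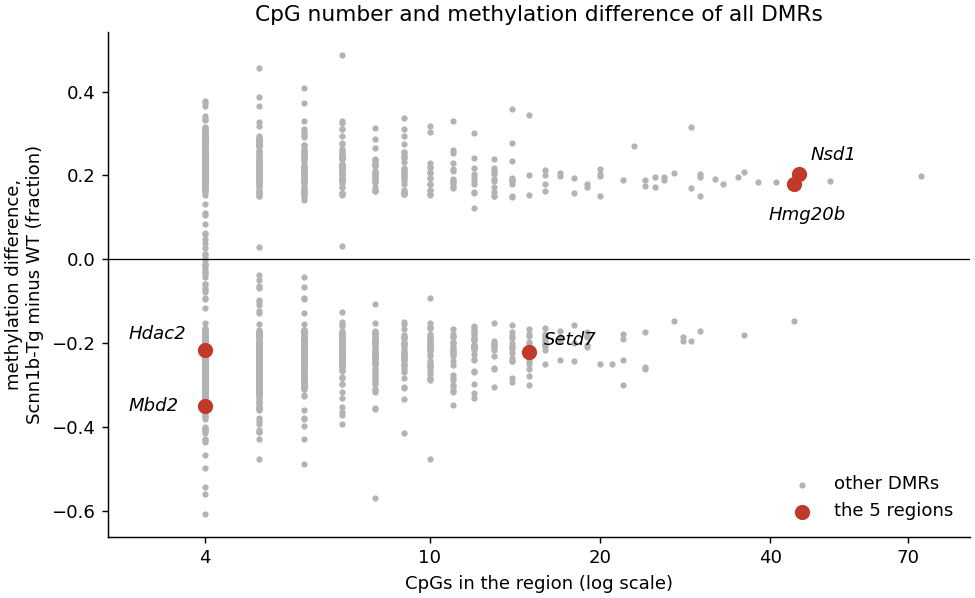
Methylation difference (Scnn1b-Tg minus WT, fraction) against the number of CpGs in a region (log scale) for all 1926 DMRs in grey, with the 5 regions in red. Nsd1 (45 CpGs, 0.203) and Hmg20b (44 CpGs, 0.180) lie in the thin upper right end, Setd7 (15 CpGs, -0.221) lies in the middle, and Hdac2 (-0.217) and Mbd2 (-0.350) lie at the minimum of 4 CpGs.

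What the 5 regions shared was small. Their differences were 0.180 and 0.203 for the gains and -0.217, -0.221 and -0.350 for the losses, beside a median absolute difference of 0.233 over all DMRs. Mbd2 alone exceeded in size the upper quartile of losses, 0.272. Levels in Scnn1b-Tg AMs lay between 0.296 and 0.583, whereas WT levels spread from 0.305 to 0.888. The 3 regions with 15 or more CpGs had WT levels of 0.305, 0.345 and 0.517, and the 2 with 4 CpGs had 0.799 and 0.888. The lower WT level thus went with the higher CpG number in these 5 regions, a description over 5 points that share the same libraries. The 2 regions with the most CpGs were gains, whose median WT level in the whole list was 0.470, against 0.829 for losses. Among all losses the median WT level was 0.831 with at least 10 CpGs and 0.827 with 4 CpGs.

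Motifs were searched by their letters on both strands in 300 bp around the centre of each DMR. The E-box CACGTG, whose central CpG can be methylated, occurred at Setd7 and at Hdac2 and in 5.61% of all 1926 windows. In each case the match lay within the deposited region, so that its CpG is among those measured, and it can be read in the printed sequences as caCGtg. With 7 motifs searched in 5 windows, these matches are a description and no result about the regions. The GC box GGGCGG occurred at Hmg20b and in 11.6% of windows, and at Nsd1 only outside the window but within the region. Its share was 19.0% in windows of gains and 26.7% in windows of DMRs in a CpG-rich run, and Nsd1 and Hmg20b are both. None of the 5 windows held AP-1 (TGANTCA, 8.41% of windows), C/EBP (TTGCNNAA, 13.6%), IRF (GAAANNGAA, 12.4%), ETS (CCGGAAGT, 0.675%) or the cAMP response element (TGACGTCA, 0.467%). The Mbd2 window held none of the 7 motifs, and neither did the Nsd1 window.

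Beyond the 5 genes, a list of 178 chromatin genes in 14 classes was read for DMRs. Of these, 14 genes (7.87%) had a DMR assigned, against 6.11% of 21774 protein-coding genes, and they carried 15 DMRs. Gains were assigned to 3 genes (1.69%, background 1.90%) and losses to 11 (6.18%, background 4.43%). The median difference over the 15 DMRs was -0.221, beside -0.218 over all DMRs. These shares are near those of all protein-coding genes and are no result about the list. Counting DMRs within 100 kb of the TSS left 11 of the 178 genes (6.18%), against 4.53% of protein-coding genes, which is likewise no result about the list.

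The other 9 genes with a DMR were Sirt7, Arid1b, Kdm4c, Ino80, Jarid2, Prmt6, Tbl1x, Chd2 and Chd7. Sirt7, a sirtuin deacetylase gene, had the only further gain, 2.73 kb upstream of its TSS (0.576 in Scnn1b-Tg, 0.379 in WT, 6 CpGs). The chromatin remodeller subunit gene Arid1b had 2 losses inside the gene, at 0.325 in Scnn1b-Tg and 0.584 in WT close to the TSS (4.72 kb) and at 0.622 and 0.813 farther in. The remodeller gene Chd7 had a loss 43.8 kb upstream (0.420 in Scnn1b-Tg, 0.675 in WT), and Chd2 had a loss 37.4 kb upstream (0.564 and 0.798). Losses near Ino80, Jarid2, a cofactor of Polycomb, and Tbl1x, a corepressor subunit, lay 27.7, 49.5 and 45.8 kb from the TSS. That of Prmt6, an arginine methyltransferase gene, lay 397 kb away, and that of the demethylase gene Kdm4c lay in an intron of Frmd3, 107 kb away.

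By class, the share of genes with a DMR ran from 0 to 22.2%, against 6.11% of protein-coding genes, and each class held at most 20 genes. The upper end was 4 of 18 chromatin remodellers, all losses (4.43% of protein-coding genes had a loss), and these few genes of 1 class among 14 are no result about remodellers. The 5 classes without a DMR held 50 genes, were put together because they had none, and are likewise no result beside a share of 6.11%. They were histone acetyltransferases, H3K9 methyltransferases, acetyl-lysine readers, DNA methylation enzymes (Dnmt1, Dnmt3a, Dnmt3b and the Tet genes among them) and methyl-CpG readers other than Mbd2 and Mbd3. Within 3 kb of the TSS, where 11% of all DMRs lay, there were 2 genes of the list, Nsd1 and Sirt7 (1.12%, against 0.804% of protein-coding genes).

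**Figure D4:**
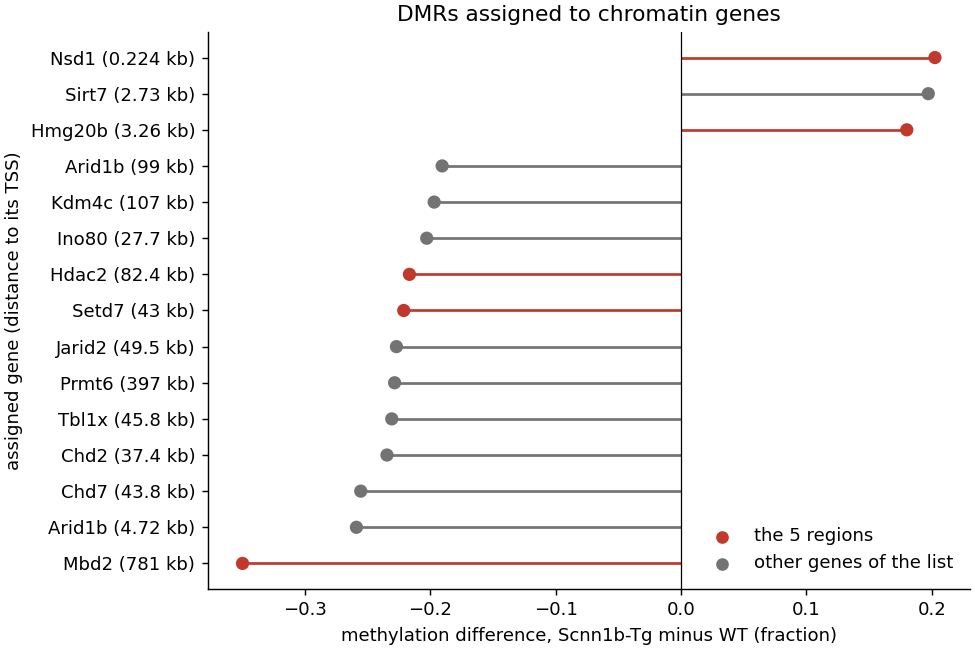
Methylation difference (Scnn1b-Tg minus WT, fraction) of the 15 DMRs assigned to genes of the chromatin list, with the distance to the TSS in brackets, the 5 regions in red and the other genes in grey. Gains were at Nsd1, Sirt7 and Hmg20b, all within 5 kb of the TSS, where gains made up 45.5% of all DMRs (130 of 286). Of the 4 list DMRs within 5 kb, 3 were gains, and the other, 4.72 kb from the TSS of Arid1b, was a loss. By size the 12 losses ranged from Arid1b to Mbd2.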

How the data were processed

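The study measured DNA methylation by tWGBS in 7 samples. According to the study's methods and the submitters' processing notes, Trimmomatic 0.36 was used for trimming and BWA 0.7.8 for alignment to mm10, duplicates were marked with Picard, CpGs were called with MethylDackel, profiles were smoothed with bsseq, and DMRs were called with DSS (at least 3 CpGs, 50 bp, a difference of 0.1 and an adjusted p threshold of 0.05). Smoothing shares information between neighbouring CpGs. The deposited levels are fractions that the authors averaged per genotype. The table also holds the authors' own difference and area statistic, which were not used. Differences here are Scnn1b-Tg minus WT of the deposited levels.

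Of the deposited regions, 37 differ by less than 0.1 and the smallest CpG number is 4. All regions were kept. All 1926 start and end on a CpG of GRCm38, and 1707 have the CpG number of the reference. Genes were compared by gene ID with the RefSeq annotation of GRCm38. Percentiles give the share of DMRs of the same direction with an absolute value at or below that of the region. Sequences were read with pysam 0.24.0 in Python 3.11.15. No test was made, since no level per sample is given. Sequence functions were tested on simulated data.

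The members and the gene list were chosen with earlier results of these data known. The genes named are the 5 genes, genes overlapping or next to their regions, and every list gene with a DMR. Genes assigned to DMRs within 1 Mb were named after their values were seen. No sequence is shown for Mbd2.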

Additional observations from a re-analysis of the deposited data

How the results depend on the processing

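No paired analysis was possible because the table gives 1 mean per genotype and no level per sample, and for the same reason no sample could be left out and no coverage minimum varied. Of the 5 regions, 2 were gains. This count fell to 1 among DMRs with an absolute difference of at least 0.2, which leaves out Hmg20b, and to 1 when DMRs were assigned to the nearest coding TSS on the reference annotation, whether with all transcripts or, an alternative chosen after seeing the data, with curated ones only, since Gipc3 is then nearer. The 14 chromatin genes with a DMR became 6 with at least 10 CpGs and 2 within 3 kb of the TSS, which by construction keep fewer DMRs. Within 3 kb the share was 1.12%, against 0.804% of protein-coding genes. The share of all protein-coding genes was not computed for DMRs with at least 10 CpGs, so the count of 6 has no background beside it. The distance of Nsd1 to the TSS changed from 224 bp to 0 with predicted transcripts. Percentiles of the difference moved with the comparison set, to 24.1 among all DMRs and 65.7 among gains with at least 10 CpGs at Nsd1 (36.2 in the report), to 11 and 28.3 at Hmg20b (18.6), and to 62.4 among losses with at least 10 CpGs at Setd7 (34.1). In the region as deposited, Nsd1 held 1 motif in place of 0. Of 35 alternatives, 23 left the value within 1.5 times. Read depth is unknown, and the Hdac2 and Mbd2 regions have the smallest CpG number of the table.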
